A study of Mus musculus with 10 samples.

Results

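Mup3, Mup20 and Mup21 are 3 genes of the mouse major urinary protein (Mup) family, written mup3, mup20 and mup21 in the deposited count tables. They were taken by name as family members whose sequence sets them apart, and are 3 of 21 Mup rows and of 14812 gene rows in all. All 10 libraries held single hepatocytes of C57BL/6 male mice aged 3 months, fed chow ad libitum, anaesthetised with ketamine and xylazine, and isolated by collagenase perfusion with a Percoll gradient. No genotype, diet or drug differed between groups: the libraries differ by Zeitgeber time (ZT, hours in the light-dark cycle), with 3 libraries at ZT0 (A, B and C), 2 at ZT6 (A and B), 3 at ZT12 (A, B and C) and 2 at ZT18 (A and B). How many mice stand behind each library is not in the labels, so p-values measure only the spread between these libraries, which may be partly technical.

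Major urinary proteins are small lipocalins, barrel-shaped carriers that the liver secretes into the blood and the kidney passes into urine, where they hold and slowly release volatile pheromones. Their genes lie in one cluster of near-identical copies, and the liver of male mice makes most of them under the pulsed growth hormone signal that runs through the growth hormone receptor, Jak2 and Stat5b. Mup20, also called darcin, is itself a male pheromone that attracts females.

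The libraries held 710 to 2860 cells and 1454623 to 7144803 UMIs (unique molecular identifiers, each standing for 1 captured mRNA molecule), 18378 cells in all. The 6 hepatocyte markers together were found in 100% of cells of every library, and summed to 43525 CPM (a library's UMIs scaled to a total of 1e+06) in ZT12A, the lowest, and to 53122 to 78988 CPM in the other 9. The summed endothelial markers reached at most 17.4 CPM, macrophage markers 6.11 CPM, neutrophil markers 7.84 CPM, stellate markers 11.6 CPM and lymphocyte markers 0.140 CPM, while cholangiocyte markers ranged from 5.79 to 118 CPM. The 118 CPM were in ZT0A and came from Spp1 and Sox9, and the defining bile duct markers Krt19, Krt7 and Epcam stayed at or under 0.687 CPM each. The erythroid list had 72.2 to 108 CPM in 9 libraries and 361 CPM in ZT18B, with a UMI in 12.2% to 23.4% of cells. Most of it outside ZT18B was Alas2, an enzyme of haem synthesis (67.4 to 107 CPM), while the 4 haemoglobin rows summed to at most 8.80 CPM in 9 libraries and 293 CPM in ZT18B. The labels' index numbers follow the times in part: both ZT18 libraries carry index 4, both ZT6 libraries index 7, and ZT0 and ZT12 hold indexes 3, 7 and 5 in their A, B and C libraries. The 2 ZT18 libraries also stood apart in 99 annotated pseudogene rows, which summed to 3318 to 3517 CPM there and 829.8 to 1141 CPM elsewhere. Cell columns carry running numbers and no barcodes, so barcodes shared between libraries were not counted.

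The 3 genes sit side by side at one end of the cluster, on the minus strand of chromosome 4 (GRCm38, GENCODE M21): Mup20 at chr4:62050234-62054158, Mup3 at chr4:62083476-62087342 and Mup21 at chr4:62147932-62150863. Mup20 and Mup3 are 29.3 kb apart, Mup3 and Mup21 60.6 kb, and no other Mup entry lies between them. Over the coding sequence, Mup3 had a median identity of 83.5% to the other Mup genes and Mup21 of 84.7%, the lowest values of the family. The closest relative of each was the other, at 94.7% identity. Mup20 was less set apart than its choice as a distinct member implies, at 90.6% and in sixth place, behind Mup4, Mup6 and Mup5, whereas the pairs among the other 19 annotated genes had a median identity of 98.9%. Of all 50-base windows of the transcript, 84.4% occurred in no other gene for Mup3, 49.5% for Mup20 and 80.7% for Mup21, against a median of 7.85% for the other 19. In the last 500 bases, where a 3′ library reads, those shares were 91.8%, 72.3% and 73.2%, against a median of 0% for the others. Mup6, Mup4 and Mup5 also had mostly windows of their own, 95.8%, 83.6% and 71.0% of those in the last 500 bases. Over the whole transcript they had 95.7%, 87.6% and 82.9%. How reads that fit several Mup genes were counted is not given in the sources used here, so the rows of the near-identical copies are less certain than those of Mup3, Mup20 and Mup21.

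The closeness of Mup3 and Mup21 extends to the promoter, which is why both are shown. The RefSeq sequences (GRCm38.p6, minus strand, 5′ to 3′, from 250 bases before to 50 bases after the annotated start) are chr4:62087268-62087567 for Mup3 and chr4:62150792-62151091 for Mup21, with the TATA-type word TATATAA in capitals. No Mup20 promoter is printed.
Mup3: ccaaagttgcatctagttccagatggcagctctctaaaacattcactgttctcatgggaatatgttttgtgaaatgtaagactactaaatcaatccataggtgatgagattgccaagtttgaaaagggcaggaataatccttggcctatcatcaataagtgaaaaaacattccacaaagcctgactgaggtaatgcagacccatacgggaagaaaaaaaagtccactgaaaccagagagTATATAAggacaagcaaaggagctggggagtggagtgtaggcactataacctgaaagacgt
Mup21: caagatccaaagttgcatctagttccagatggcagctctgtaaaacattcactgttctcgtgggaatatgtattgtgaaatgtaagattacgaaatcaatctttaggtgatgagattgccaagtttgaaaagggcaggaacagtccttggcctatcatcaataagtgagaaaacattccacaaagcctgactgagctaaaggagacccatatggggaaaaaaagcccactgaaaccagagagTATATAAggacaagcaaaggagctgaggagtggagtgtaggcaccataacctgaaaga
Over 297 aligned bases the pair was 93.3% identical, while either was 74.1% to 88.7% identical to the other 12 Mup promoters in the table. TATATAA began 11 bases before the annotated RefSeq start in Mup3 and 8 bases before it in Mup21. The GENCODE genes start further upstream, at 62087342 and 62150863, so that the word lies inside both. TATATAA was present in 13 of 14 Mup promoters against 3.24% of 32851 promoters of that length. The Stat5-type word TTCNNNGAA, the E-box CACGTG and the D-box TTATGTAA were searched on both strands in the same windows. None of the 14 Mup promoters held any of them, against 8.30%, 7.15% and 0.938% of all promoters, which says only that these letters are not in these windows.

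Mup3 was among the most abundant mRNAs of the hepatocyte, 14th of 14812 rows by mean level, followed by Mup20 in 19th place. Mup21 was far scarcer, at 819th. One UMI stands for 1 molecule whatever the length of the mRNA, so CPM needs no scaling by length between genes. Between Mup rows, shares and order also depend on how reads that fit several genes were counted, which is not given. The 3 genes averaged 10226 ± 2345, 8544 ± 5141 and 148 ± 95.1 CPM (SD, n = 10). All 21 Mup rows together took 1.15% to 4.01% of a library's UMIs. Mup3 gave 33.3% to 70.5% of the Mup UMIs, Mup20 26.5% to 48.0% and Mup21 0.152% to 1.39%. Next in order came Mup11 at 1171 ± 1046 CPM and Mup17 at 788 ± 730 CPM.

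Mup3 measured 15406, 8079 and 12033 CPM at ZT0 (A, B and C), 9855 and 10994 CPM at ZT6, 6666, 9867 and 10369 CPM at ZT12, and 9780 and 9209 CPM at ZT18. The highest and the lowest library were ZT0A and ZT12A, and the 4 times overlapped except for ZT6 and ZT18, where both ZT6 libraries lay narrowly above both ZT18 libraries. After the TMM normalization used in the tests, ZT6 (9387 and 11263) and ZT18 (10044 and 9712) overlapped too. Mup20 measured 19248, 3035 and 7065 CPM at ZT0, 4076 and 4972 CPM at ZT6, 7106, 4295 and 10263 CPM at ZT12, and 13235 and 12146 CPM at ZT18. Both ZT18 libraries exceeded all ZT6 and ZT12 libraries, but ZT0A was higher still. Mup21 measured 319, 63.0 and 37.8 CPM at ZT0, 77.8 and 136 CPM at ZT6, 212, 101 and 67.3 CPM at ZT12, and 240 and 227 CPM at ZT18. It was again highest in ZT0A, and rested on 134 to 1830 UMIs per library.

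**Figure D1:**
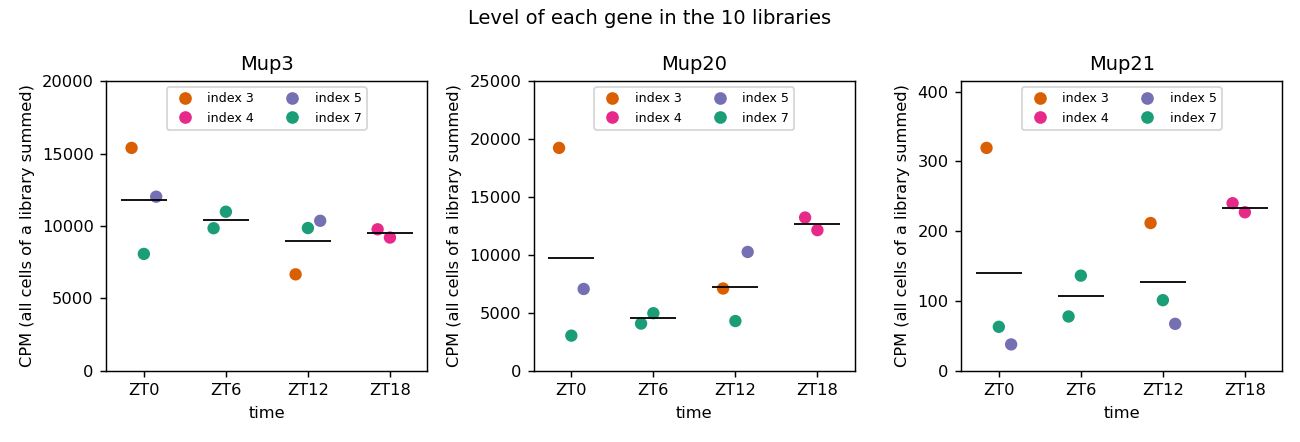
CPM of Mup3, Mup20 and Mup21 (y axes, each from 0) in each of the 10 libraries by time (x axis); colours mark the index number of the labels and black lines the mean of a time. Mup20 lies between 3035 and 4972 CPM in all 4 libraries of index 7 and between 7065 and 19248 CPM in the other 6.

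None of the 3 genes passed the test for a 24-h rhythm (edgeR's quasi-likelihood test on library sums with Benjamini-Hochberg adjustment), where 5.14% of 8908 genes did. At an edgeR unadjusted p under 0.05, or by DESeq2 after adjustment, the count was 0 as well. The fitted log2 amplitudes, the distance from mean to peak, were 0.28 for Mup3 (adjusted p = 0.508), 0.84 for Mup20 (adjusted p = 0.269, peak at ZT19.5) and 0.62 for Mup21 (adjusted p = 0.573). None of the 3 differed between ZT12 and ZT0, where 3.44% of genes did by edgeR. The counts at an edgeR unadjusted p under 0.05 and by DESeq2 after adjustment were also 0. The log2 differences were -0.56 ± 0.33 (SE, adjusted p = 0.437), -0.65 ± 0.54 (0.613) and -0.35 ± 0.65 (0.854). None of the 3 differed between ZT18 and ZT6 either, where 3.79% of genes did (1 at an unadjusted p under 0.05, 0 by DESeq2). Here Mup20 had the largest estimate, 1.56 ± 0.67 (edgeR unadjusted p = 0.0361, adjusted p = 0.217), beside 1.19 ± 0.80 for Mup21 (adjusted p = 0.451) and -0.06 ± 0.40 for Mup3 (adjusted p = 0.956). The part of the high pseudogene rows of ZT18, and of the haemoglobin of ZT18B, in this difference was not tested. The ZT0 estimates lean on 1 library: without ZT0A the ZT12 to ZT0 difference became -0.25 for Mup3, 0.42 for Mup20 and 1.23 for Mup21, none called, and the rhythm amplitude of Mup3 became 0.14.

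The balance between Mup20 and Mup3 differed between libraries. The ratio of Mup20 to Mup3 UMIs was 1.25, 0.376 and 0.587 at ZT0, 0.414 and 0.452 at ZT6, 1.07, 0.435 and 0.990 at ZT12, and 1.35 and 1.32 at ZT18. The 4 libraries of index 7, from ZT0, ZT6 and ZT12, all lay between 0.376 and 0.452. The 2 libraries of index 3 gave 1.25 and 1.07, those of index 5 gave 0.587 and 0.990, and those of index 4 (ZT18) gave 1.35 and 1.32. Across the 4 times, the mean log2 ratio spanned 1.63 from ZT6 to ZT18, which did not pass an exact permutation test over libraries (p = 0.213, adjusted p = 0.426 over 6 ratio tests). The ratios of Mup21 to Mup3, from 0.00314 to 0.0318, and of Mup21 to Mup20, from 0.00535 to 0.0298, did not either (exact permutation adjusted p = 0.69 and 0.953).

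**Figure D2:**
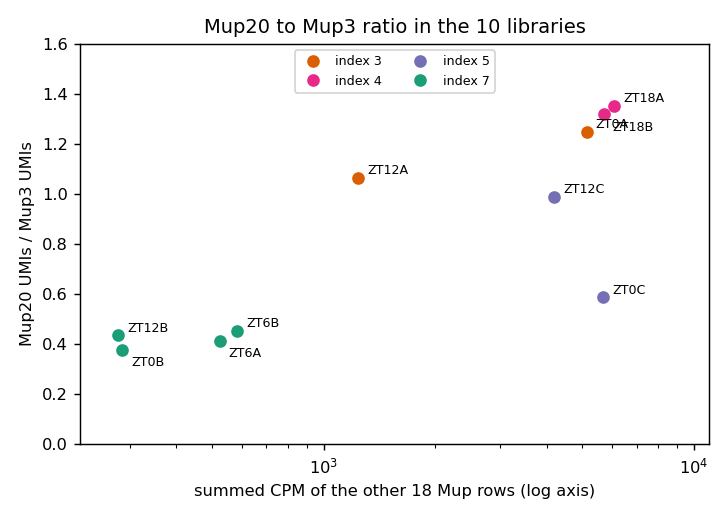
Ratio of Mup20 to Mup3 UMIs (y axis, from 0) against the summed CPM of the other 18 Mup rows (x axis, log scale), 1 point per library, coloured by index number. The 4 libraries of index 7 sit together at ratios of 0.376 to 0.452 and 279 to 583 CPM of other Mup rows.

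The sum of the other 18 Mup rows followed the same division. It was 279 to 583 CPM in the libraries of index 7 and 1237 to 6086 CPM in the other 6. Single rows did not all do so: the levels of Mup2, Mup6, Mup9, Mup10 and Mup13 overlapped between index 7 and the other libraries. In the rhythm test 12 of the 18 were called, where 5.14% of all genes were, with a median amplitude of 1.99 against 0.25 over all genes. Between ZT6 and ZT18 10 of the 18 were called, where 3.79% of all genes were. All 10 were higher at ZT18, and the median log2 difference of the 18 was 3.70 against -0.01. Mup18 (5.89 ± 1.44, adjusted p = 0.0379), Mup15 (5.22 ± 1.27, 0.0371), Mup13 (5.17 ± 1.23, 0.0345) and Mup19 (5.08 ± 0.98, 0.0141) had the largest differences by edgeR. Time and index number cannot be told apart in this contrast, since all ZT6 libraries carry index 7 and all ZT18 libraries index 4. The rhythm test holds the same libraries, so time and index number are partly confounded there too. Among the rows called for a rhythm, Mup2, Mup7, Mup8, Mup10, Mup13, Mup14, Mup15 and Mup19 had no sequence window of their own in the last 500 bases. Neither count of called rows need stand for that many genes measured separately. With the index number as a block, an alternative chosen after seeing the data, the rhythm amplitude of Mup20 was 0.28 with its peak moved to ZT4.22 (edgeR adjusted p = 0.783), and that of Mup21 was 0.37 with its peak at ZT6.76 (adjusted p = 0.732). Index 4 occurs only at ZT18, so under this block the ZT18 libraries do not shape the curve. These peaks rest on ZT0, ZT6 and ZT12.

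Position in the lobule was the one comparison in which all 3 genes passed the test. The liver lobule runs from the portal vein, where blood enters, to the central vein, and hepatocytes along this axis divide their tasks. Cells of each library were ordered by 8 periportal and 8 pericentral landmark genes, and the 2 outer of 3 equal parts, the periportal and pericentral zones, were compared with the library as a block. All 3 genes were higher in the periportal zone, where 24.6% of 8907 genes differed by zone and 11.9% were higher periportally (landmarks left out of both shares).

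Mup20 had the steepest gradient. Its pericentral level had a lowest, median and highest value of 1735, 3770 and 10165 CPM over the 10 libraries, and its periportal level of 4652, 12604 and 28483 CPM. It was higher periportally in 10 of 10 libraries, with a log2 difference of 1.77 ± 0.10 (edgeR adjusted p = 2.53e-16) and folds within libraries from 2.74 to 8.39. The largest fold came from ZT12A, and without that library the difference was 1.64 (adjusted p = 5.71e-20). The median cell held 1541 to 3089 UMIs in the pericentral zone and 1577 to 2720 in the periportal zone.

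Mup3 had a shallower gradient in the same direction. Its pericentral level ranged from 4552 to 13421 CPM with a median of 8183, and its periportal level from 8641 to 16454 CPM with a median of 11433. It too was higher periportally in 10 of 10 libraries, by 0.60 ± 0.07 on the log2 scale (edgeR adjusted p = 1.15e-08), with folds from 1.20 to 2.04.

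Mup21 ranged from 27.3 to 265 CPM pericentrally (median 90.4) and from 41.9 to 372 CPM periportally (median 138). It was higher periportally in 9 of 10 libraries, ZT18A being the exception, by 0.52 ± 0.11 (edgeR adjusted p = 0.000381). The zone sums held only 32 to 805 UMIs each. When the deepest 5% of each library's cells were left out, the call was lost and the difference was 0.22 (adjusted p = 0.0969). The log2 differences at ZT18 were -0.23 and 0.12, those at ZT0 0.46, 0.41 and 0.81, those at ZT6 0.46 and 0.83, and those at ZT12 1.92, 0.64 and 0.51.

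The gradient of Mup20 exceeded those of both other genes. The log2 ratio of Mup20 to Mup3 was 1.18 ± 0.41 higher in the periportal zone (SD, n = 10, higher in 10 of 10 libraries, exact sign-flip permutation p = 0.00195, the smallest that 10 libraries allow, adjusted p = 0.00586). That of Mup21 to Mup20 was lower periportally in 10 of 10, by a mean log2 difference of -1.19 ± 0.34 (exact permutation adjusted p = 0.00586). For Mup21 against Mup3 the difference was -0.0042 ± 0.42 (exact permutation adjusted p = 0.953), with 4 libraries above 0.

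In 8 layers of equal cell number, numbered from the central vein, the mean of Mup20 was higher in each layer than in the one before. Its mean level was 3871, 4516 and 5034 CPM in layers 1 to 3, 6524 and 8266 CPM in layers 4 and 5, and 10886, 13333 and 14341 CPM in layers 6 to 8. Layer 8 was the highest in 8 of 10 libraries. Mup3 rose from layer 1 to layer 6, with means of 7272, 8740, 9467, 10219, 10981 and 11476 CPM, and had 11795 and 11660 CPM in layers 7 and 8. Layer 1 was the lowest in 10 of 10 libraries. Mup21 averaged 112 CPM in layer 1, 131 to 150 CPM in layers 2 to 6, and 178 and 182 CPM in layers 7 and 8, with standard deviations of 83.7 to 144 CPM. These layer profiles were not tested.

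**Figure D3:**
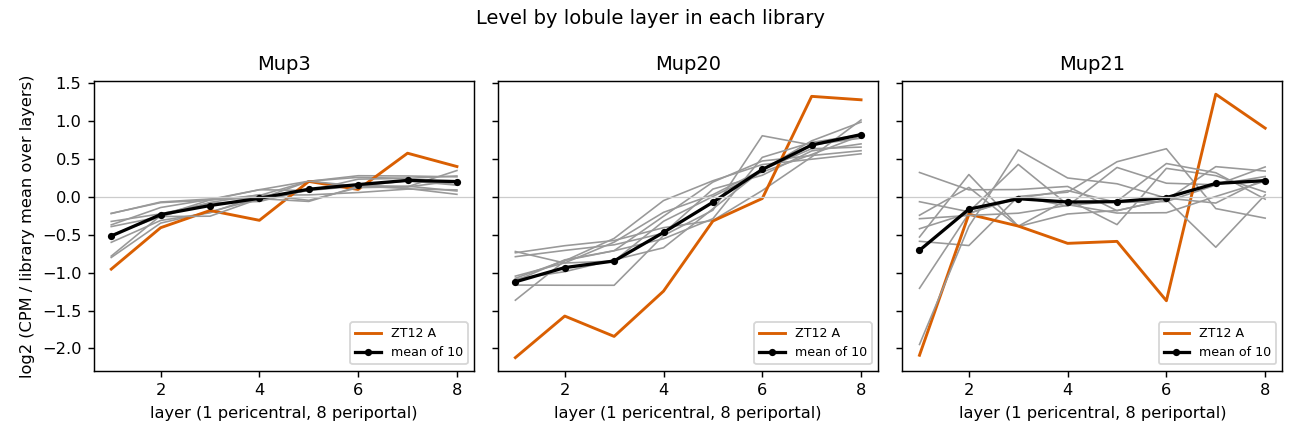
log2 of the CPM in each of 8 lobule layers over the library's mean across layers (y axis), from pericentral layer 1 to periportal layer 8 (x axis); grey lines are libraries, the orange line is ZT12A and the black line the mean of 10. Mup20 rises over the whole axis, Mup3 flattens from layer 6, and ZT12A has the widest span.

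Most other Mup rows ran the opposite way. Of the other 18, none was called higher periportally by edgeR (0 at an unadjusted p under 0.05 and 0 by DESeq2). By edgeR 12 were called lower (9 by DESeq2), where 12.8% of all genes were (landmarks included). The median log2 difference of the 18 was -0.42 against -0.01 over all genes. Mup11 (-3.59 ± 0.15, edgeR adjusted p = 1.11e-19), Mup17 (-1.37 ± 0.13, 2.2e-10), Mup8 (-1.10 ± 0.14, 1.29e-07) and Mup16 (-0.74 ± 0.10, 6e-07) had the largest differences. Mup1, Mup7, Mup8, Mup13, Mup15 and Mup19, all called lower, had no sequence window of their own in the last 500 bases. For the remaining rows called lower that share was 7.10% to 42.6%. The count of 12 therefore need not stand for 12 genes measured separately. Mup4, Mup5 and Mup6, the other members of low identity, measured -0.11 to 0.17 and were not called. The difference between the 3 genes and the other rows was not itself tested.

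**Figure D4:**
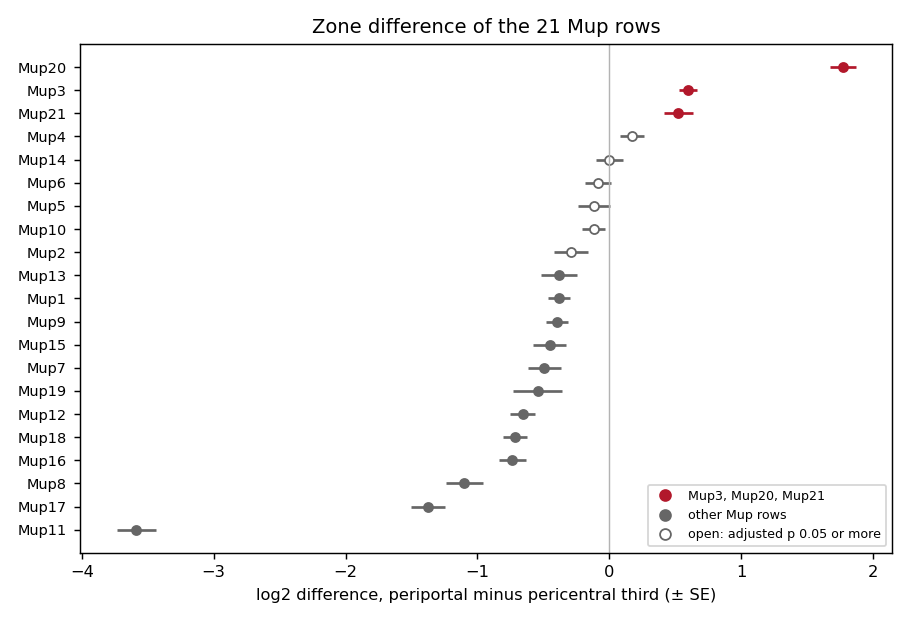
Fitted log2 difference between the periportal and pericentral zones with its SE (x axis) for each of the 21 Mup rows (y axis, sorted); red marks Mup3, Mup20 and Mup21, and open points are rows whose adjusted p is not under 0.05. The 3 red points, at 0.52 to 1.77, are the only rows called higher periportally, and Mup11 is lowest at -3.59.

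The zone difference of the 3 genes was not called as changing with time of day, where 0.0337% of genes (3 of 8907) were by edgeR. At an edgeR unadjusted p under 0.05 there were 2 of the 3, Mup20 and Mup21, where 6.12% of all genes were. By DESeq2 there was none after adjustment. The log2 zone difference of Mup20 was 1.45, 1.56 and 1.56 at ZT0, and 1.86 and 1.46 at ZT6. It was 3.07, 2.08 and 1.71 at ZT12, and 1.55 and 1.51 at ZT18. All 3 ZT12 libraries thus lay above every ZT0 and ZT18 library. The fitted amplitude was 0.38 with a peak at ZT11.3 (edgeR unadjusted p = 0.00542, adjusted p = 0.56). It was called with no filter on low genes (0.37, adjusted p = 0.000302) and with cells of at least 3000 UMIs only (0.59, adjusted p = 7.89e-05). Only 44 such cells were in ZT12C, 82 in ZT6B and 88 in ZT12A, against 149 to 953 in the other libraries. With the index number as a block, where the ZT18 libraries do not shape the curve, the zone-dependent rhythm of Mup20 was called as well (0.41, adjusted p = 0.0401). Without ZT12A the amplitude shrank to 0.17 (adjusted p = 0.868). Mup3 and Mup21 had amplitudes of 0.12 (adjusted p = 0.934) and 0.45 (adjusted p = 0.672).

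In single cells thinned to 1000 UMIs each, which removes differences in depth, Mup3 was found in nearly every cell, Mup20 in most and Mup21 in few. Unthinned shares are given in brackets. Mup3 had a UMI in 98.2% to 99.95% of cells in 9 libraries and in 85.5% in ZT12A (98.6% to 100% and 88.3%). Mup20 had one in 69.4% to 99.4% of cells, with a median of 92.3% (73.0% to 99.8%). Mup21 had one in 3.79% to 22.9%, with a median of 8.98% (10.4% to 42.0%). No group of cells that should lack these genes was there to measure free RNA, and its part in the shares of all 3 genes was not tested. Haemoglobin, foreign to hepatocytes, had a UMI in 0.111% to 1.55% of cells in 9 libraries and in 6.44% in ZT18B, before thinning.

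Mup20 varied between cells far more than Mup3 did. The squared coefficient of variation left after subtracting counting error was 0.469 to 2.15 for Mup20, with a median of 0.856, and 0.0899 to 0.752 for Mup3, with a median of 0.150. The 0.752 was in ZT12A, where it was 0.438 in the 264 cells of at least 2000 UMIs thinned to 2000. Among the 109 to 123 genes with a mean of at least 1 UMI per thinned cell, Mup20 ranked between 1st and 9th by this measure in all 10 libraries. Mup3 ranked between 9th, in ZT12A, and 75th, and the medians of those genes were 0.0829 to 0.147. Comparing cells within the same layer left 55.3% to 83.5% of the Mup20 variation in place. Orders from the odd and from the even landmarks correlated at 0.683 to 0.847 over the cells of a library. Cells placed in a wrong layer can therefore add to that share. The squared coefficient of variation of Mup21, 0.296 to 3.35, rests on means of 0.0396 to 0.314 UMIs per cell.

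**Figure D5:**
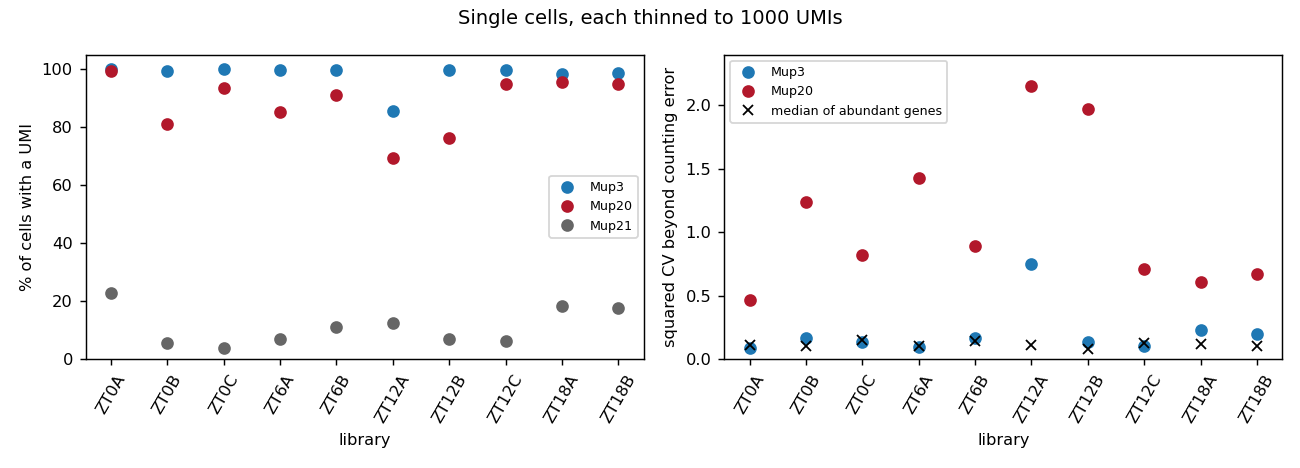
Left, percent of cells with at least 1 UMI of each gene (y axis); right, squared coefficient of variation between cells beyond counting error for Mup3 and Mup20, with crosses for the median of abundant genes (y axis); the x axis gives the 10 libraries, and cells are thinned to 1000 UMIs. ZT12A has the lowest share of cells with Mup3, 85.5%, and the widest variation of Mup3, 0.752.

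The levels of Mup3 and Mup20 were only loosely tied within a cell. Pearson's r over the thinned cells of a library was 0.107 to 0.413 for Mup3 and Mup20, 0.0511 to 0.211 for Mup3 and Mup21 and 0.0290 to 0.185 for Mup20 and Mup21; the points share their library and thinned depth, and counting error lowers such values. Within layers the range for Mup3 and Mup20 was 0.00985 to 0.315. Of cells with 10 or more UMIs of the 2 genes together, the median cell drew 21.4% to 31.4% of them from Mup20 in ZT0B, ZT0C, ZT6A, ZT6B and ZT12B, and 45.3% to 56.3% in the other 5 libraries. That median was lower pericentrally than periportally in every library, by the widest margin in ZT12A (20.7% against 61.9%). Only 296 of 710 cells in ZT12A and 1487 of 2860 in ZT0B had those 10 UMIs, against 2044 of 2081 in ZT0A. Cells with few UMIs of the 2 genes are thus left out of these medians.

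ZT12A held a group of cells without Mup3. In that library 83 of 710 cells (11.7%, exact Clopper-Pearson 95% interval 9.42% to 14.3%, counting error only) had no Mup3 UMI, against at most 1.43% in any other library. They had a median of 1309 UMIs, against 1817 in the cells with Mup3, and 44 of the 83 lay in layers 1 and 2. Mup20 stood at 921 CPM in them against 7648 CPM in the other cells of ZT12A, and Mup21 at 51.2 against 226 CPM. The genes of all 16 listed abundant secreted liver proteins stood lower there, Apoa1 (the main protein of high-density lipoprotein) at 0.0792 and Ttr (the thyroid hormone carrier transthyretin) at 0.150 of the level in the other cells, with a median ratio of 0.732. Glul, the pericentral glutamine synthetase, was at 3012 against 409 CPM. Other zoned genes differed less, with the pericentral landmark Cyp2e1 at 3097 against 1755 CPM and Cps1 at 3609 against 4117 CPM. These values come from cells of 1 library and carry no test.

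The growth hormone pathway and the liver factors known to act on Mup genes held no gene called with time by edgeR or DESeq2: 0 of 19 tested in the rhythm test, 0 between ZT12 and ZT0 and 0 between ZT18 and ZT6. At an unadjusted p under 0.05 there were 4, 2 and 2 of the 19, where 20.4%, 15.5% and 19.6% of all genes were. Between zones, 5 were higher periportally and 5 lower, with a median log2 difference of 0.04 (24.6% of all genes differed). Among them were the liver transcription factor Cebpb (-0.72 ± 0.07, edgeR adjusted p = 1.2e-09), Cish, a feedback inhibitor induced by Stat5 (0.72 ± 0.11, 2.77e-06), and Socs2, another (-0.68 ± 0.11, 5.45e-06). Of all genes, 11.9% were higher periportally (landmarks left out) and 12.8% lower (landmarks included). Of 15 other male-biased liver genes, 3 were higher periportally and 10 lower, with a median of -0.64. Among them Susd4 (-4.62 ± 0.30), Elovl3 (-2.12 ± 0.14), a fatty acid elongase, and Cyp4a12b (-1.43 ± 0.14) were lower and Ugt2b38 (2.70 ± 0.16) higher, all with edgeR adjusted p of 3.54e-10 or less.

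Most genes of other secreted products had the same zone direction. Of all genes, 11.9% were higher periportally (landmarks left out) and 12.8% lower (landmarks included). Of 16 abundant secreted liver proteins, 12 were higher periportally and 2 lower, with a median log2 difference of 0.58. Albumin (Alb, 1.23 ± 0.07, edgeR adjusted p = 6.15e-16), Fgb of fibrinogen (0.76 ± 0.07, 1.25e-10), Apoa1 (0.75 ± 0.09, 1.72e-08) and transferrin (Trf, 0.70 ± 0.06, 2.6e-11) led that list. Of 7 other lipocalins tested, 6 were higher by edgeR and 1, the retinol carrier Rbp4, was lower (-0.21 ± 0.06, adjusted p = 0.0151). By DESeq2, 5 of the 7 were called, 4 of them higher. Ambp (0.82 ± 0.07), the acute-phase carrier Orm1 (0.68 ± 0.08) and Lcn2 (0.68 ± 0.24) had the largest differences (edgeR adjusted p = 7.18e-11, 4.35e-08 and 0.031).

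Over the 80 layer values, with each library's mean removed, the genes whose profile was most like that of Mup3 included Orm1 and Mug2 (Pearson's r = 0.896 and 0.891), and the profile of Mup20 was most like those of Aldh1b1, Sds and Serpina3k (0.933, 0.919 and 0.915). For Mup21 they were Apoc3, Mup3 and Orm1 (0.725, 0.682 and 0.646). Mup3 and Mup20 correlated at 0.809. Over the 10 library totals the order was different: Mup3 was most like Vps29, Psma2 and Nfu1 (0.942, 0.936 and 0.932), Mup20 most like Nudt7, Atp5f1 and another family member, Mup5 (0.926, 0.911 and 0.909), and Mup21 most like Paip2, 1810037I17Rik and Srp9 (0.920, 0.875 and 0.845). These values rank 4324 genes over layers and 4340 over libraries, and the points share libraries and their depth.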

How the data were processed

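The deposited values are UMI counts per gene and cell, whole numbers that the authors made with Cell Ranger, per the submitters' processing notes, which also list the builds hg19 and mm10 without a role. The libraries were made with the 10x Chromium 3′ kit, per the labels' protocols. Version, annotation, cell filter and the treatment of doublets are not given in the sources used here. No cell was removed and no doublet caller was run.

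Counts were summed per library, or per library and zone, and tested with edgeR 4.0.16 (glmQLFit, glmQLFTest, R 4.3.3) after TMM normalization (factors 0.888 to 1.14) on genes of at least 3 CPM on average, over all such genes, at an adjusted p of 0.05. The rhythm test had a cosine and a sine of 24 h. Scripts were tested on simulated data. Ratios were tested by exact permutation over libraries, two-sided for zones. Alternatives were library size alone, DESeq2 1.42.0, other filters, deeper cells, other zone cuts and leaving out libraries. The members, the gene lists and the tests were chosen with earlier results of these data known. Named were the 3 members and, of each list, up to 4 genes past the threshold with the largest change, plus the 3 genes most like each member by Pearson's r of log2(CPM + 1) among genes of at least 20 CPM. Landmarks were left out of the likeness over layers. Some genes that this rule names are not reported here. GENCODE M21 symbols matched 14321 of 14812 rows. Same-lettered ZT0 and ZT12 libraries deviated from their group means together (correlations of 0.238, 0.416 and 0.465), those of ZT6 and ZT18 did not (0.0205). The pairing comes from the titles' letters, whose meaning the labels do not give. Same-lettered ZT0 and ZT12 libraries also share their index number, and those of ZT6 and ZT18 do not. Letter and index number therefore cannot be told apart at ZT0 and ZT12.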

Additional observations from a re-analysis of the deposited data

Results flagged for a closer look

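One library, ZT12A, stood apart from the other 9 in 4 of 12 quantities compared over the 10 libraries. Chance puts about 1 in 20 such groups past the limit used, and the 4 quantities are not independent. The zone difference of Mup20 was 3.07 on the log2 scale there, with the next highest at 2.08. The zone difference of Mup21 was 1.92, with the next highest at 0.83. The share of thinned cells with a Mup3 UMI was 85.5%, with the next lowest at 98.2%. The squared coefficient of variation of Mup3 between cells beyond counting error was 0.752, with the next highest at 0.231. In cells of at least 2000 UMIs thinned to 2000, it was 0.438, with the next highest at 0.218. ZT12A was also the smallest library, with 710 cells.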

How the results depend on the processing

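Of 378 alternative values computed for 24 results, 358 kept their direction and their side of the threshold. The zone differences of Mup3 (0.50 to 0.68) and Mup20 (1.61 to 1.98) were called under all 20 alternatives, and that of Mup21 (0.22 to 0.87) under all but the one without the 5% of cells with the most UMIs (0.22, edgeR adjusted p = 0.0969). The other changes were in results not called with the settings of the report. Cells of at least 3000 UMIs were as few as 44 in ZT12C, 82 in ZT6B and 88 in ZT12A. With cells of at least 3000 UMIs, the log2 difference between ZT12 and ZT0 was 0.39 for Mup21, that between ZT18 and ZT6 was 0.19 for Mup3, the zone-dependent rhythm of Mup3 was 0.10 with its peak moved, that of Mup20 was 0.59 and called, and the zone difference of the Mup21 to Mup3 ratio was 0.27. That ratio difference was -0.22 without the 5% of deepest cells (exact permutation p = 0.0234). The zone-dependent rhythm of Mup20 was also called with no filter (0.37) and with the index number as a block (0.41), and under that block the rhythm amplitudes of Mup20 (0.28) and Mup21 (0.37) peaked at other times. The ZT18 libraries do not shape the curves fitted with that block. Leaving out 1 library at a time, the ZT12 to ZT0 difference ranged from -1.09 to 0.42 for Mup20 and from -0.94 to 1.23 for Mup21, the ZT18 to ZT6 difference of Mup3 from -0.19 to 0.072, and the zone difference of the Mup21 to Mup3 ratio from -0.10 to 0.084. The causes were not tested. With the replicate letter as a block (the pairing held for ZT0 and ZT12 only), no call of the 3 genes changed: the ZT12 to ZT0 differences were -0.55, -0.49 and -0.03, those of ZT18 to ZT6 -0.07, 1.49 and 1.11, the rhythm amplitudes 0.28, 0.79 and 0.55, and the zone-dependent amplitudes 0.12, 0.38 and 0.46 for Mup3, Mup20 and Mup21. Over all genes that block raised the number of rhythm calls from 458 to 749, of ZT12 to ZT0 calls from 306 to 504, of ZT18 to ZT6 calls from 338 to 730 and of zone-dependent calls from 4 to 37 (landmarks included). With cells of at least 2000 UMIs thinned to 2000, the means over libraries of the squared coefficients of variation moved by less than the spread between libraries. Single libraries moved more: Mup3 in ZT12A went from 0.752 to 0.438, and Mup21 from 3.35 to 6.39 in ZT12A and from 1.15 to -0.18 in ZT0C. Depth limits Mup21 most, with 134 UMIs in the sparsest library.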
